A study of Mus musculus with 34 samples.

Results

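The genes of cholesterol and fatty acid synthesis were followed in mouse neural stem cells that carried active STAT3, CEBPB or both. The set holds 39 genes chosen by name: the enzymes of the mevalonate and sterol pathways, their SREBP regulators, genes of sterol transport, the enzymes of fatty acid synthesis and desaturation, and the acyl-CoA thioesterase Acot1. They were chosen with earlier results of these data known. Counts of members set beside the share of all genes therefore describe the list and do not test it. Each gene was read from 1 probe in each cell type, the detected probe with the highest mean. For 2 genes, Insig1 and Srebf2, this probe differed between the cell types. The joint fit used the C17.2 probe of Insig1 and the NSC probe of Srebf2. Of the 39 genes, 36 had a probe with a single gene symbol and 33 were detected on enough arrays to be tested in both cell types, among 9699 genes tested in the C17.2 line and 10858 in primary cells. Ggps1, Abca1 and Acaca had a probe but were left out by the detection filter, and Acat2, Hmgcs1 and Fdft1 were not analysed here. Of the 20 sterol enzymes in the set, 16 were tested.

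Cells build cholesterol from acetyl-CoA by way of mevalonate, squalene and lanosterol, and fatty acids from the same precursor by way of malonyl-CoA. The SREBP transcription factors, encoded by Srebf1 and Srebf2, switch on the genes of both pathways. When sterols are plentiful, the INSIG proteins hold SREBP and its escort SCAP in the endoplasmic reticulum, and the genes are read less. Brain cells make their own cholesterol, because lipoproteins of the blood do not cross into the brain in bulk.

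Total RNA was measured on 34 Illumina bead arrays lying on 6 slides, 16 from C17.2, a line of mouse neural stem cells, and 18 from primary cells of the same kind (NSC), taken from the E13.5 telencephalon. The slide of an array was inferred from the number that begins its sample title. All cells of every group were transduced with retroviral vectors. The control group carried the pBabe vector alone, the STAT3C group a constitutively active mutant of STAT3, the CEBPB group the transcription factor CEBPB, and the double group STAT3C and CEBPB together. For the NSC double group the labels differ: the source name says STAT3, whereas the description and the transduction label say STAT3C, as it is called here. C17.2 groups held 4 arrays each. NSC groups held 5 control, 4 STAT3C, 4 CEBPB and 5 double arrays. Whether the arrays stand for separate cultures is not stated, so p-values measure only the spread between these arrays, and array numbers carry no order. In bulk RNA, fewer cells of a kind and less RNA per cell cannot be told apart.

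Between 33.8% and 35.9% of probes passed detection on a C17.2 array, and between 36.3% and 41.7% on an NSC array. Slide 1 held the 4 C17.2 controls and nothing else, so in C17.2 a vector's difference from control and that of its slides cannot be told apart. Slide was a fixed term in the NSC fit. The probes of Stat3 and Cebpb themselves passed the test in 0 of the comparisons with control (limma, smallest adjusted p = 0.238 for Cebpb in the C17.2 double group), so the arrays give no check of the vectors. Nes, Sox2 and Vim, markers of neural stem cells, were detected on every array of both cell types. Pax6 was detected on no array of either cell type, and Fabp7 and Hes5 on none of C17.2. Xist was not detected on array 4 of each NSC group, and results that rest on these arrays are also given without them. Among the C17.2 arrays Xist was detected only on control array 1 and double array 2.

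The stretch of DNA before the gene starts was read for 31 of the genes, in 40 windows of 250 bases from RefSeq (GRCm38.p6). The letters CCAAT, the core of NF-Y sites and a usual neighbour of SREBP sites, were found on either strand in 62.5% of these windows, against 33.8% of 32851 windows of all genes. TCACNCCAC, a form of the sterol regulatory element, was found in 2.5% of the windows, in that of Hmgcs1, against 1.05% of all. TTCNNNGAA, the STAT motif, was found in 5% against 7.02%, and TTGCNNAA, a C/EBP motif, in 10% against 9.56%, before Nsdhl, Dhcr7, Vldlr and Acot1. Both strands were searched for each motif, and matches of different motifs may overlap. A match is a description of letters and not of a bound site. The windows of 6 genes are printed because their levels carry the results that follow: Insig1 and Nsdhl, which passed a test in C17.2, Acss2 and Srebf2, which passed one in NSC, and Cyp51 and Msmo1, which had some of the largest changes among the sterol enzymes. They were chosen after the values were seen. Each runs 5′ to 3′ on the strand of its gene, with CCAAT or its reverse complement ATTGG in capitals. They lie at chr5:28071162-28071411, chrX:72918271-72918520, chr2:155517793-155518042 and chr15:82147019-82147268 on the plus strand, and at chr5:4104698-4104947 and chr8:64733579-64733828 on the minus strand.
Insig1: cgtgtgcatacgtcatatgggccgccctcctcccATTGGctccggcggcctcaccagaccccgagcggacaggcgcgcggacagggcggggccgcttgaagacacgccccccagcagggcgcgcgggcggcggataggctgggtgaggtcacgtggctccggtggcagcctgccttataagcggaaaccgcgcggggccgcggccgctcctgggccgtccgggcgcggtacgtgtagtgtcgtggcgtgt
Nsdhl: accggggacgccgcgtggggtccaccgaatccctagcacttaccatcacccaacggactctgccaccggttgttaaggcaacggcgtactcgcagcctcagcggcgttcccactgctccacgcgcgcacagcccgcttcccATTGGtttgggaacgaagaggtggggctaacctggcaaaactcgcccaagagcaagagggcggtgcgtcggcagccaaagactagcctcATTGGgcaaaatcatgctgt
Acss2: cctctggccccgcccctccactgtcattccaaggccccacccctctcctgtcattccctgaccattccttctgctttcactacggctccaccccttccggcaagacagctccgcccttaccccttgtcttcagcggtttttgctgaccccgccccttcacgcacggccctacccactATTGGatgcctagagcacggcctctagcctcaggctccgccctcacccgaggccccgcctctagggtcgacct
Srebf2: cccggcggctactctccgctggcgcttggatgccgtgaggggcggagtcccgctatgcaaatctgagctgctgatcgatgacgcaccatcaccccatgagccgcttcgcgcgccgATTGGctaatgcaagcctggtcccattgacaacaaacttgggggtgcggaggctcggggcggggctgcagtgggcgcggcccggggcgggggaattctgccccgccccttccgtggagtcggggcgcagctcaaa
Cyp51: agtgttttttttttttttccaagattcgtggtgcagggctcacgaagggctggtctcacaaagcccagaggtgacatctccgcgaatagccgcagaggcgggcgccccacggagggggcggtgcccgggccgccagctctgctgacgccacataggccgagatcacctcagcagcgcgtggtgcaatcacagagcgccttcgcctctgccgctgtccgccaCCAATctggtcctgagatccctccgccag
Msmo1: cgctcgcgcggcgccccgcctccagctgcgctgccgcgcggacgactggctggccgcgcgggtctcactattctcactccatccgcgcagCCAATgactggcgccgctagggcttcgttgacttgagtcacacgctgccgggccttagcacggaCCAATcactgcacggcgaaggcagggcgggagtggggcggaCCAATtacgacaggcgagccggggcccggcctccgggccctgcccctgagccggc

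In C17.2 cells with STAT3C, the sterol enzymes had higher group means than control throughout the pathway, but 0 of them passed the test over all genes. All 16 had a positive log2 difference, with a median of 0.56 against -0.01 over all genes, of which 47.9% were above 0, and the deposited normalised values gave a smaller median of 0.27. Here and below, the enzymes were read on the same arrays and can move together, so their counts are not counts of separate observations. Above the control mean lay 3, 3, 11 and 13 of 16 on C17.2 control arrays 1 to 4. By limma with Benjamini-Hochberg adjustment over all genes, 0 of 33 members were called at an adjusted p below 0.05, where 0.0103% of all genes were called. At an unadjusted p below 0.05, 12 of 33 members were higher, against 6.82% of all genes, and 0 were lower, against 5.95%. All 5 tested enzymes of the mevalonate block were positive, from 0.39 to 0.63, and the 11 enzymes from squalene to cholesterol ran from 0.25 to 1.22.

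Cyp51 (chr5:4080674-4104697), the demethylase that removes a methyl group from lanosterol, gave the largest of these differences. Its normalised log2 level was 8.60, 8.26, 9.27 and 9.21 on the control arrays and 8.97, 10.07, 10.61 and 10.55 with STAT3C. The difference was 1.22 (SE 0.35, limma adjusted p = 0.239). STAT3C array 1 lay among the controls and the other STAT3C arrays lay above all of them. Sqle (chr15:59315092-59331193), the squalene epoxidase and a rate-limiting step, was at 9.99, 9.73, 10.24 and 10.14 in control and at 10.43, 11.40, 11.62 and 11.35 with STAT3C, a difference of 1.18 (SE 0.27, limma adjusted p = 0.169). The groups did not overlap, and this was the smallest adjusted p of any member in the comparison. Hsd17b7, a ketoreductase of the pathway, differed by 1.09 (SE 0.30), Lss, which closes squalene epoxide into lanosterol, by 1.05 (SE 0.44), and Msmo1, the methylsterol oxidase, by 0.84 (SE 0.24). Arrays of the groups stood apart for 5 members, all higher with STAT3C: Sqle, Insig1, Stard4, Scd2 and Fads1, against 4.57% of all genes. STAT3C array 1 was the lowest of its group for 14 of the 16 sterol enzymes, and without it the median difference was 0.79. On the first principal component of all genes, which held 50.2% of the variance in C17.2, the controls lay between -45.4 and -21.3. STAT3C array 1 lay among them at -37.7, and the other STAT3C arrays at -12.3, 34.8 and 16.6. The part of this component in the result was not tested.

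**Figure D1:**
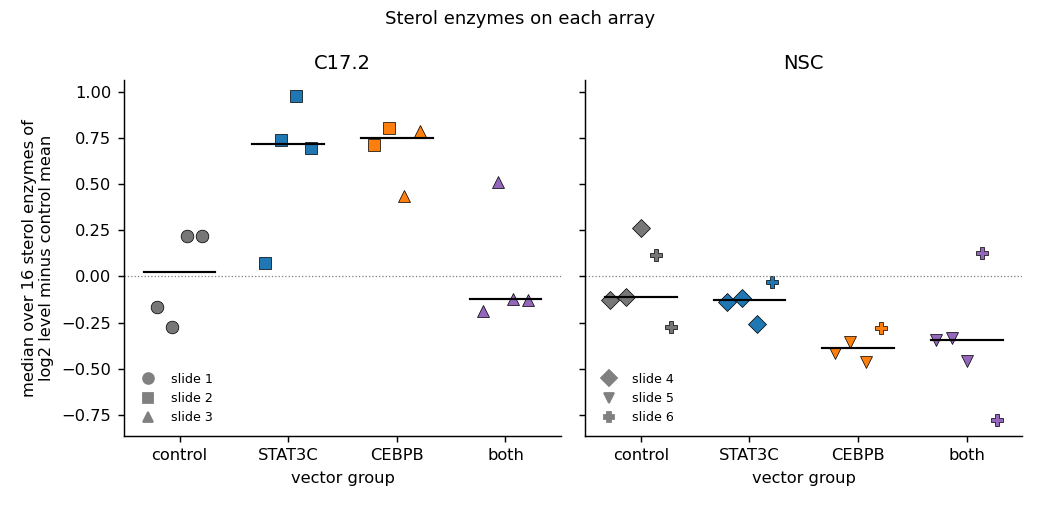
Each point is 1 array, placed at the median over the 16 tested sterol enzymes of its log2 level minus the mean of the control arrays of that cell type; the horizontal line is the median of the group and the marker shape gives the slide. In C17.2, 3 of 4 STAT3C arrays and all 4 CEBPB arrays lie above every control array, and in NSC array 5 of the double group is lowest at -0.78.

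With CEBPB, most sterol enzymes of C17.2 cells also lay above control. Of 16 sterol enzymes 15 were positive, with a median of 0.71 against 0.01 over all genes (51% above 0), and Lbr, the lamin B receptor with sterol reductase activity, was the exception at -0.21. The deposited normalised values gave a median of 0.28. Only Acot1 was called among 33 members, as lower, where 1.62% of all genes were called and 0.67% as lower. Without adjustment, 13 members were higher at p below 0.05, against 12.1% of all genes. Groups did not overlap for 7 members that were higher, Idi1, Fdps, Cyp51, Msmo1, Hsd17b7, Sc5d and Dhcr7, against 8.11% of all genes. The STAT3C and CEBPB comparisons share their control arrays, so their likeness cannot be read as 2 separate results. CEBPB array 3, at -22.4 on the first principal component, lay among the controls there and had the lowest sterol median of its group, 0.44 above the control mean. CEBPB arrays 1, 2 and 4 lay at 41.8, 43 and 36.7 on the component, and without array 3 the median difference was 0.77.

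Dhcr7 (chr7:143823167-143848410), the reductase of the last step to cholesterol, came closest to the threshold among the sterol enzymes. Its level was 6.42, 6.62, 6.78 and 7.16 in control and 7.39, 7.46, 7.49 and 7.46 with CEBPB. All CEBPB arrays lay above all controls, with a difference of 0.70 (SE 0.17, limma adjusted p = 0.0508). Cyp51 was at 10.08, 9.91, 9.34 and 10.11 with CEBPB, all above the controls, and differed by 1.03 (SE 0.35, limma adjusted p = 0.111). Lss differed by 1.14 (SE 0.44), Hsd17b7 by 1.12 (SE 0.30), Pmvk, the phosphomevalonate kinase, by 0.90 (SE 0.29) and Msmo1 by 0.83 (SE 0.24), with limma adjusted p of 0.144, 0.063, 0.0969 and 0.0742. Idi1, the isomerase that readies the isoprenoid units, was not above background on any of the 4 controls and was detected on all 4 CEBPB arrays, at least 1.52-fold higher (limma adjusted p = 0.0595). That bound sets the CEBPB mean against the lowest detected value on each control array. Within slide 2, which held CEBPB arrays 1 and 2 and all STAT3C arrays, CEBPB minus STAT3C was positive for 8 and negative for 8 of the 16 sterol enzymes, with a median of 0.01.

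In C17.2 cells with both vectors, the sterol enzymes were centred on the control. Of 16, 8 were positive and 8 negative, with a median of 0.01, equal to that over all genes. Only Vldlr was called among the 33 members, where 0.577% of all genes were called. Vldlr (chr19:27216480-27254231), a receptor for lipoproteins and reelin, was at 8.34, 8.69, 7.93 and 8.18 in control and at 9.66, 9.89, 9.33 and 9.60 with both vectors. The double arrays lay above all controls, and Vldlr rose by 1.34 (SE 0.28, 2.53-fold, limma adjusted p = 0.0472). With STAT3C and with CEBPB alone the Vldlr differences were 0.53 and 0.44, and arrays of these groups spread from control levels upwards (8.41, 9.34, 9.24 and 8.29; 8.38, 9.47, 8.32 and 8.73). The 2 other detected Vldlr probes gave 1.37 and 1.33 for the double group. The Vldlr call held in 3 of 9 other ways of processing, with adjusted p from 0.0191 to 0.0765, and in 5 of 16 fits that left out 1 array; the deposited normalised values gave 0.83.

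Nsdhl (chrX:72918521-72958528), a dehydrogenase that removes methyl groups from the sterol ring, had the lowest difference from control of the sterol enzymes in the double group. It was at 9.17, 8.93, 9.73 and 9.58 in control, 9.29, 10.17, 9.79 and 9.42 with STAT3C, 9.06, 9.36, 9.77 and 9.31 with CEBPB, and 8.14, 8.74, 7.69 and 8.38 with both. The double arrays lay below every array of the other 3 groups. Against control the difference was -1.11 (SE 0.26, limma adjusted p = 0.0651). Acss2, which makes acetyl-CoA from acetate, differed by -1.18 (SE 0.50), Mvd, the mevalonate pyrophosphate decarboxylase, by -0.57 (SE 0.26), Hsd17b7 by 0.57 (SE 0.30), Insig1 by -0.51 (SE 0.25) and Mvk, the mevalonate kinase, by 0.48 (SE 0.53), none of which passed the test. Mvk was detected on 2 of 4 arrays in both of these groups.

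The double group was also set against each single vector. Against STAT3C alone, all 16 sterol enzymes were lower, with a median of -0.58 (all genes 0.02, 52.5% above 0), and Insig1 and Nsdhl were called among 33 members, where 0.186% of all genes were called and 0.113% as lower. Insig1 (chr5:28071412-28078662), which holds the SREBP complex in the endoplasmic reticulum and is itself an SREBP target, was at 8.19, 9.02, 8.58 and 8.90 with STAT3C and at 6.70, 7.77, 7.22 and 7.13 with both vectors. The groups did not overlap, and Insig1 fell by 1.47 (SE 0.25, 2.77-fold, limma adjusted p = 0.0228). Nsdhl fell by 1.43 (SE 0.26, 2.7-fold, limma adjusted p = 0.031). The 3 other detected Nsdhl probes gave -1.54, -1.57 and -0.84, and the 2 other Insig1 probes -1.54 and -0.42, so the Insig1 probes differed in size. All STAT3C arrays lay on slide 2 and all double arrays on slide 3. With slide as a fixed term over the transduced arrays, where CEBPB arrays join the slides, the differences were -1.50 for Insig1 (limma adjusted p = 0.529) and -1.76 for Nsdhl (limma adjusted p = 0.488), and neither was called. In that fit 12 of 16 sterol enzymes were lower, with a median of -0.69. The windows before both genes, printed above, hold CCAAT on the minus strand, Insig1 at 1 place and Nsdhl at 2.

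Against CEBPB alone all 16 sterol enzymes were again lower in the double group, with a median of -0.60 (all genes 0.00386, 50.7% above 0), and 0 of 33 members and 0% of all genes were called by limma (adjusted p = 0.993). Without adjustment, 16 members were lower at p below 0.05, against 2.3% of all genes. Groups did not overlap for 6 members, all lower with both vectors, Fdps, Msmo1, Nsdhl, Dhcr7, Insig1 and Elovl6, against 1.09% of all genes. Within slide 3, which held all double arrays and CEBPB arrays 3 and 4, 14 of 16 sterol enzymes were lower, with a median of -0.57. Both comparisons share the double arrays. Array 2 of the double group was the highest of its group for 13 of 16 sterol enzymes, with a median of 0.51 above the control mean, whereas the other double arrays lay between -0.19 and -0.12. On the first principal component double arrays 1 and 4 lay at -25 and -20.3, and arrays 2 and 3 at 41.4 and 41.6.

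Non-additivity, that is the double group's change less what the single vectors' changes add up to, was negative for all 16 sterol enzymes, with a median of -1.48 against 0.02 over all genes (51.8% above 0). It was tested in limma: 0 members and 0% of all genes were called, and 21 of 33 members were lower at an unadjusted p below 0.05, against 5.97% of all genes. Cyp51 stood at -2.38 (SE 0.50, limma adjusted p = 0.189), Lss at -2.34 (SE 0.62, limma adjusted p = 0.28), Insig1 at -1.95 (SE 0.35, limma adjusted p = 0.176) and Msmo1 at -1.63 (SE 0.34, limma adjusted p = 0.189). The controls on slide 1 enter this quantity, and slide 1 held nothing else.

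Among the regulators in C17.2, Insig1 differed by 0.96 with STAT3C (SE 0.25, limma adjusted p = 0.222), from 7.40, 7.26, 8.06 and 8.14 in control, and its STAT3C arrays lay above all of these. With CEBPB it was at 8.23, 8.13, 8.08 and 8.35 and differed by 0.48 (SE 0.25). Srebf2 (chr15:82147269-82205379), the SREBP that favours sterol genes, differed by 0.48, 0.74 and 0.19 with STAT3C, CEBPB and both (SE 0.32), with 0 calls. Srebf1, the SREBP that favours fatty acid genes, ran from -0.03 to -0.01, Scap from -0.15 to 0.02 and Insig2 from -0.10 to 0.05 over the same comparisons. Srebf1 was detected on 12 of 16 C17.2 arrays, with group means from 5.10 to 5.13, also near background. Other detected probes gave larger values for Scap, the escort of SREBP, at 0.49, 0.32 and 0.29 with STAT3C, CEBPB and both, and for Insig2, at 0.34, 0.45 and 0.48. The other Srebf2 probe gave smaller ones, at 0.19, 0.30 and -0.08, so the size of each rests on the probe. Of the fatty acid genes in C17.2, Scd2, a desaturase, differed by 0.71 with STAT3C (SE 0.26), and the 4 tested desaturases were positive there, from 0.23 to 0.71. Fasn, the fatty acid synthase, ran from -0.14 to -0.01 over the comparisons with control. It was detected on only 8 of 16 C17.2 arrays, with group means from 4.92 to 5.07, so a change could be hidden near background. Acss2 was at -0.77 with CEBPB (SE 0.50).

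Acot1 (chr12:84009502-84017670), which splits long-chain acyl-CoA into fatty acid and coenzyme A, had the largest change of the set. In C17.2 it was at 11.15, 11.84, 10.42 and 11.36 in control, 11.66, 10.46, 8.93 and 9.88 with STAT3C, 8.65, 5.81, 8.42 and 9.52 with CEBPB, and 9.32, 8.01, 6.60 and 8.03 with both vectors. All CEBPB and all double arrays lay below the controls, and they spread more widely than the controls did. With CEBPB Acot1 fell by 3.09 (SE 0.74, 8.51-fold, limma adjusted p = 0.049), and the other detected Acot1 probe gave -2.48. With both vectors the difference was -3.20 (SE 0.74, limma adjusted p = 0.0675) and with STAT3C -0.96 (SE 0.74). The CEBPB call was lost in 8 of 16 fits that left out 1 array; without CEBPB array 2, the lowest, the difference was -2.33 (limma adjusted p = 0.13). Acot1 has close paralogs, and whether its probes also bind their transcripts was not tested. In NSC Acot1 differed by -0.01, 0.33 and -0.25 with STAT3C, CEBPB and both.

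**Figure D2:**
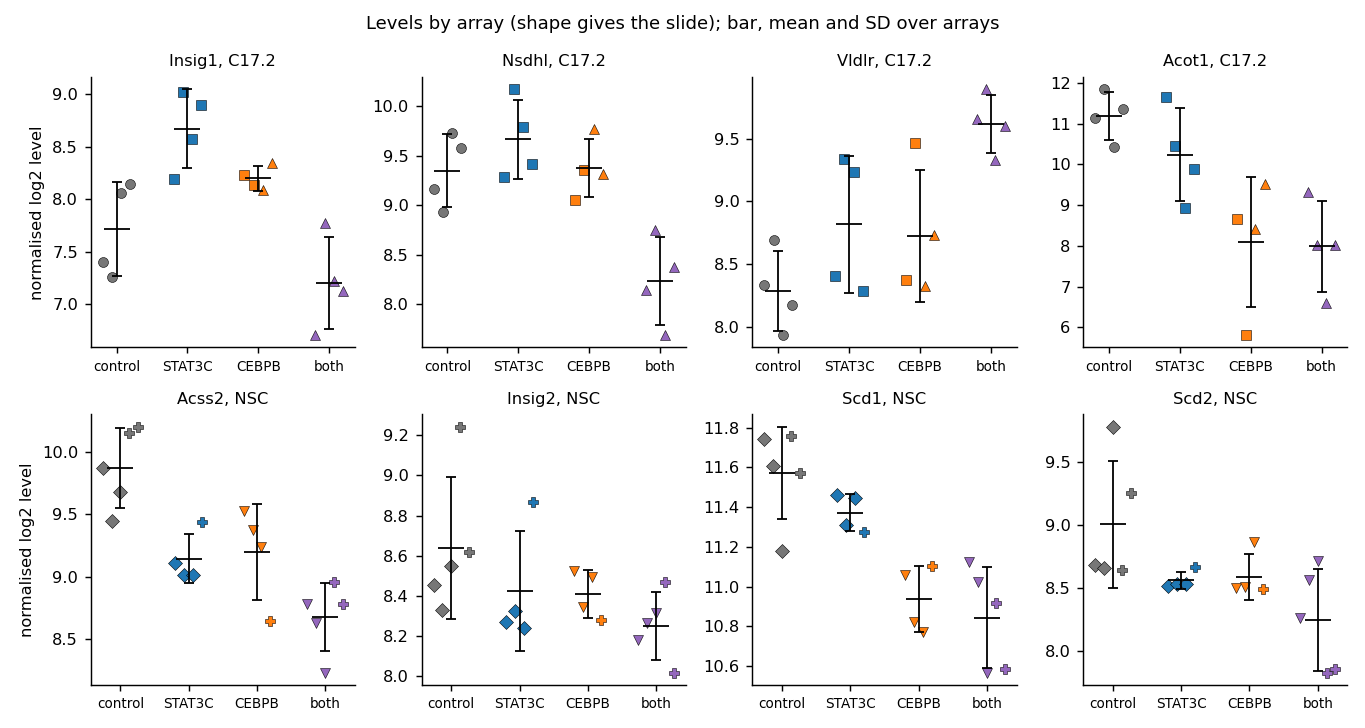
Points are the normalised log2 levels of 1 gene on each array, with the mean and SD over the arrays of a group as bars and the slide as marker shape; upper row C17.2 (Insig1, Nsdhl, Vldlr, Acot1), lower row NSC (Acss2, Insig2, Scd1, Scd2). The C17.2 double arrays of Nsdhl lie between 7.69 and 8.74, under every other array, and the NSC double arrays of Acss2 between 8.23 and 8.96, under every control.

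The summed levels of some marker lists also varied between arrays and groups in C17.2, and their part in the results was not tested. The summed linear level of the 2 tested fibroblast and pericyte markers ran from 202 to 335 in control, 308 to 2880 with STAT3C, 290 to 1570 with CEBPB and 160 to 1600 with both. That of the 3 tested oligodendrocyte lineage markers ran from 373 to 9260 in control, 134 to 6110, 73 to 4800 and 73 to 4990 in the same order. Of the 4 listed fibroblast and pericyte markers Col1a1 was detected on every C17.2 array and Lum on none, and of the 5 oligodendrocyte lineage markers with a probe Olig2 and Mog were detected on none. No marker of these lists was called in C17.2 by limma. The sum of the 4 tested neural stem markers had a median of 9020 in control (range 8170 to 11000), 7510 with STAT3C (6800 to 9120), 5760 with CEBPB (5280 to 11200) and 5770 with both (5640 to 9060). That of the 2 tested neuron markers had medians of 550, 299, 109 and 205 in the same order.

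In primary NSC most sterol enzymes lay below control with each vector. With STAT3C, 15 of 16 sterol enzymes were below control, with a median of -0.14 against 0.02 over all genes (54.5% above 0), and 0 of 33 members and 0% of all genes were called by limma. Lower at an unadjusted p below 0.05 were 4 members, Dhcr7, Acss2, Fasn and Scd2, against 2.11% of all genes, and 1 higher, Scap, against 3.03%. Groups did not overlap for 4 members, Dhcr7, Insig1, Acss2 and Fads2, all lower, against 0.46% of all genes. Acss2 differed by -0.66 (SE 0.17) and Dhcr7 by -0.59 (SE 0.18). Insig1 differed by -0.56, Fads2, the first desaturase of polyunsaturated fatty acids, by -0.55, Scd2 by -0.44, Cyp51 by -0.43, Lss by -0.40 and Fasn by -0.36. Part of these sizes rests on control array 3. There Insig1 was at 10.6 and Fads2 at 9.709, against 9.193 to 9.327 and 8.213 to 8.353 on the other controls. Cyp51 at 11.05 and Scd2 at 9.78 were also highest on it. Without control array 3, 3 of 16 sterol enzymes were positive. It lies on slide 4 and so also enters the slide 4 differences below. Fasn lay near background, detected on only 10 of 18 NSC arrays. Within slide 4, which held 3 control and 3 STAT3C arrays, 14 of 16 sterol enzymes were lower, with a median of -0.18. Within slide 6, with 1 STAT3C and 2 control arrays, 10 of 16 were lower, with a median of -0.05. The other detected Fads2 probe gave -0.10, and the other Scap probe -0.13 against 0.35 for the one used.

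With CEBPB, 14 of 16 sterol enzymes in NSC were below control, with a median of -0.40 against 0.02 over all genes (54% above 0). By limma 0 of 33 members were called, where 0.0276% of all genes were, and 10 members were lower at an unadjusted p below 0.05, against 3.68% of all genes. Insig1 differed by -1.13 (SE 0.38), Acss2 by -1.02 (SE 0.24), Cyp51 by -0.82 (SE 0.42), Msmo1 by -0.76 (SE 0.34), Scd2 by -0.76 (SE 0.29), Scd1 by -0.67 (SE 0.21), Dhcr7 by -0.66 (SE 0.26) and Lss by -0.64 (SE 0.35), with the smallest limma adjusted p at 0.181 for Acss2. Dhcr7 was at 8.41, 8.40, 9.48, 8.45 and 8.94 in control and at 7.89, 7.97, 7.91 and 8.05 with CEBPB, with no overlap. Pmvk, Scd1 and Fads1 were also lower without overlap, and Npc1 was higher without overlap. The share of all genes without overlap is not given for this comparison, so these members cannot be set against background. Only slide 6 held both groups, with 1 CEBPB and 2 control arrays, and within it 11 of 16 sterol enzymes were lower, with a median of -0.18. Leaving out array 5 of the double group, which sets part of the slide term, moved the median to -0.17, and leaving out the 4 arrays without Xist moved it to -0.75. With slide 6 fitted as 2 blocks, its arrays with and without Xist, the median was -0.51 and Insig2 was called, at -0.67 (limma adjusted p = 0.0418); this setting was chosen after seeing the data.

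In NSC with both vectors Acss2, Insig2, Scd1 and Scd2 fell. These 4 of 33 members were called as lower and 0 as higher, where 2.84% of all genes were called and 1.33% as lower. Of 16 sterol enzymes 13 were below control, with a median of -0.49 against 0.01 over all genes (51% above 0), and 0 of them were called by limma, 7 being lower at an unadjusted p below 0.05. Some were called in other fits: 5 without the 4 arrays lacking Xist (Pmvk, Fdps, Lss, Tm7sf2 and Nsdhl), 5 without double array 4 (Pmvk, Mvd, Lss, Tm7sf2 and Nsdhl), 5 with slide 6 as 2 blocks by Xist (Pmvk, Mvd, Fdps, Msmo1 and Nsdhl) and 2 with no slide term (Nsdhl and Dhcr7), all lower. The share of all genes called in these fits is not given here, so these counts cannot be set against background. The deposited normalised values gave a median of -0.29. Among all members 15 were lower at an unadjusted p below 0.05, against 7.74% of all genes. Groups did not overlap for 5 members, all lower, Dhcr7, Acss2, Scd1, Fads1 and Fads2, against 1.14% of all genes.

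Acss2 (chr2:155518043-155562743) was at 9.87, 9.44, 9.68, 10.16 and 10.20 in control, 9.11, 9.02, 9.02 and 9.43 with STAT3C, 9.52, 9.38, 9.24 and 8.64 with CEBPB, and 8.78, 8.63, 8.23, 8.96 and 8.78 with both. Every double array lay below every control and every STAT3C array. Acss2 fell by 1.52 against control (SE 0.22, 2.88-fold, limma adjusted p = 0.00155). It was called in 12 of 12 other ways of processing and in 18 of 18 fits that left out 1 array, with differences from -1.73 to -1.28 in the latter. Within slide 6 the difference was -1.31. The other detected Acss2 probe gave -0.61 (limma adjusted p = 0.0833 over all probes), so the size rests on the probe. Its window before the gene, printed above, holds 1 CCAAT on the minus strand, 73 bases before the gene start.

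Scd1 (chr19:44394450-44407709) and Scd2 (chr19:44293676-44306864) are stearoyl-CoA desaturases, which make monounsaturated fatty acids. Scd1 was at 11.74, 11.61, 11.18, 11.76 and 11.57 in control and at 11.12, 11.03, 10.57, 10.92 and 10.59 with both, without overlap, and fell by 0.76 (SE 0.19, 1.69-fold, limma adjusted p = 0.0418). Scd2 was at 8.69, 8.66, 9.78, 8.65 and 9.25 in control and at 8.26, 8.57, 8.71, 7.83 and 7.86 with both, and fell by 1.03 (SE 0.27, 2.05-fold, limma adjusted p = 0.0497). Double array 3 of Scd2 lay among the controls. Leaving out 1 array kept the call in 6 of 18 fits for Scd1 and in 4 of 18 for Scd2, with adjusted p up to 0.14 and 0.118. Other ways of processing kept it in 9 of 12 for Scd1 and in 6 of 12 for Scd2. Without the 4 arrays lacking Xist neither was called (limma adjusted p = 0.0815 for Scd1 and 0.0909 for Scd2), and with no slide term Scd2 differed by -0.76 (limma adjusted p = 0.0832). The lowest size for Scd1, -0.60, came without double array 5, and that for Scd2, -0.88, without control array 5. The genes are close paralogs, and binding of each probe to the other transcript was not tested.

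Insig2 (chr1:121304353-121332662), the second INSIG protein, was at 8.45, 8.33, 8.55, 9.24 and 8.62 in control and at 8.18, 8.26, 8.32, 8.47 and 8.02 with both. The groups overlapped, with control array 4 far above the rest. Insig2 fell by 0.75 (SE 0.16, 1.68-fold, limma adjusted p = 0.019), and by 0.69 within slide 6. With no slide term the difference was -0.39 (limma adjusted p = 0.279), without control array 4 it was -0.57 (limma adjusted p = 0.0927), and without the 4 arrays lacking Xist -0.60 (limma adjusted p = 0.0715). The other detected Insig2 probe gave -0.26. Insig1, at 9.33, 9.26, 10.60, 9.32 and 9.19 in control and 8.89, 8.85, 9.56, 8.69 and 7.72 with both, differed by -1.11 (SE 0.35, limma adjusted p = 0.104). The other detected Insig1 probes gave -0.83 and -1.22 (limma adjusted p = 0.0058 and 0.0868 over all probes). Against control in NSC, Srebf2 differed by -0.06, 0.01 and -0.41 with STAT3C, CEBPB and both. Srebf1 differed by -0.21, -0.29 and 0.11, and Scap by 0.35, 0.21 and 0.37, in the same order. Insig2 differed by -0.13 with STAT3C and -0.60 with CEBPB, and none of these passed the test in the main fit. The other Srebf2 probe gave -0.26, -0.05 and -0.225, and the other Scap probe -0.13, 0.04 and 0.195.

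Of the sterol enzymes in the NSC double group, Mvd differed by -0.76 (SE 0.27), Lss by -0.75 (SE 0.32) and Dhcr7 by -0.65 (SE 0.23), and the Dhcr7 levels of 7.98, 7.83, 7.88, 8.23 and 8.03 all lay below the controls. Sqle, Hsd17b7 and Sc5d had positive differences, of 0.17, 0.02 and 0.12. Arrays 4 and 5 of the double group, both on slide 6, went opposite ways: array 4 was the highest of its group for 12 of 16 sterol enzymes and array 5 the lowest for 14. Their sterol medians were 0.13 and -0.78 from the control mean. Control arrays 4 and 5, on the same slide, lay at 0.12 and -0.27, and control array 5 was the lowest of its group for 8 of 16. Both arrays 4 lacked Xist and both arrays 5 had it. The sterol median of the comparison was -0.08, with 6 of 16 positive, without array 5, and -0.73 without array 4. Members called went from 4 to 1, Acss2, without array 5 and to 9 without array 4, given without the share of all genes called. Without the 4 arrays lacking Xist the median was -0.83, with 1 of 16 positive. Within slide 6, with 2 arrays of each group, 14 of 16 sterol enzymes were lower, with a median of -0.49.

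Markers also moved in the NSC double group. Sox2 was called at -0.98, the astrocyte marker Aqp4 at -1.77 and the myelin gene Mbp at -1.07 (limma adjusted p = 0.0335, 0.0287 and 0.00145), that is 1 of 5 tested neural stem, 1 of 4 astrocyte and 1 of 3 oligodendrocyte lineage markers. The summed levels of these lists overlapped between control and double groups, at 8420 to 14300 and 8480 to 15100, 239 to 752 and 153 to 797, and 336 to 424 and 258 to 397. Mog was detected on no NSC array. The part of these cell kinds in the fall of the lipid genes was not tested. All 4 fibroblast and pericyte markers were detected on no NSC array.

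**Figure D3:**
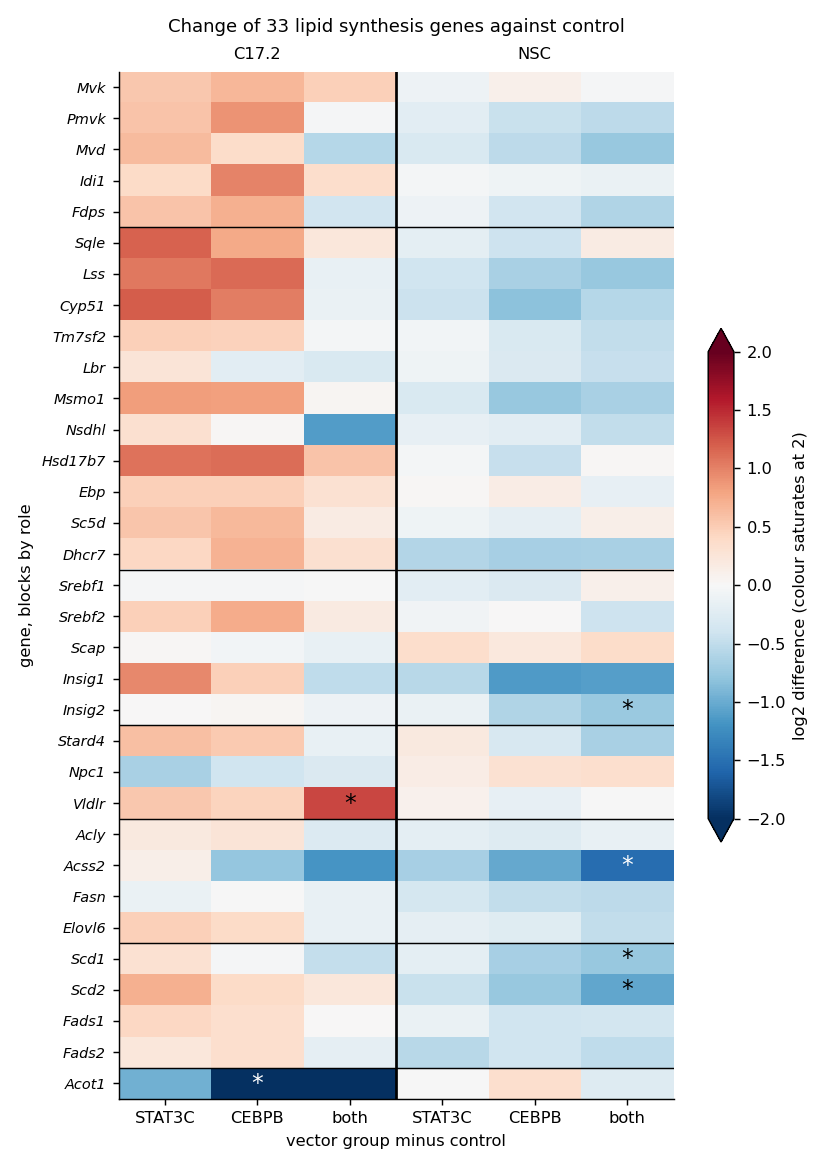
Colour gives the log2 difference of each vector group from control for the 33 tested genes, in blocks by role, for C17.2 on the left and NSC on the right, saturating at 2; a star marks an adjusted p below 0.05. The sterol enzymes in the upper blocks are mostly above 0 with a single vector in C17.2 and mostly below 0 in NSC, and the 6 stars fall on Vldlr and Acot1 in C17.2 and on Insig2, Acss2, Scd1 and Scd2 in NSC.

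Set against single vectors, the NSC double group had 1 call among these genes. Against STAT3C, 12 of 16 sterol enzymes were lower, with a median of -0.25 (49.6% of all genes above 0), and 0 of 33 members were called by limma, where 0.341% of all genes were. Without adjustment, 4 members were lower at p below 0.05, against 5.98% of all genes. Without array 5 of the double group the median was 0.13, with 11 of 16 positive. Acss2 differed by -0.87 there (SE 0.24, limma adjusted p = 0.142). Against CEBPB only Srebf2 was called, where 6.47% of all genes were called and 3.24% as lower, so 1 call among 33 members is near the background. Srebf2 was at 7.42, 7.42, 7.37 and 7.81 with CEBPB and at 6.90, 6.90, 7.10, 7.67 and 7.21 with both, with double array 4 among the CEBPB arrays, and fell by 0.42 (SE 0.10, 1.33-fold, limma adjusted p = 0.0238). The difference was -0.44 within slide 5 and -0.37 within slide 6. With the mean over both detected Srebf2 probes it was -0.29 (limma adjusted p = 0.177), the other probe alone giving -0.17. Sqle was at 0.58 (SE 0.20, limma adjusted p = 0.098). Non-additivity in NSC had 9 of 16 sterol enzymes positive, a median of 0.10 (46% of all genes above 0) and 0 members called by limma, where 0.0368% of all genes were called. At an unadjusted p below 0.05 it was positive for 2 members and negative for 2, against 14.2% of all genes in both directions.

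The difference between the cell types was tested in 1 fit of all 34 arrays, as the change in C17.2 minus the change in NSC. With STAT3C all 16 sterol enzymes had a positive difference, with a median of 0.73 against -0.02 over all genes (47.7% above 0), and 0 members were called by limma, where 0.00854% of all genes were. At an unadjusted p below 0.05, 14 members were higher, against 5.4% of all genes. With CEBPB all 16 were positive, with a median of 1.12 against -0.01 (48.9% above 0), and Dhcr7 was called at 1.35 (SE 0.31, limma adjusted p = 0.046), where 0.393% of all genes were called and 0.179% as higher. With CEBPB the difference of Dhcr7 from control was positive in C17.2 and negative in NSC, as the levels given above show. Its call held in 6 of 10 other ways of processing and in 12 of 34 fits that left out 1 array, with adjusted p up to 0.169, and the deposited normalised values gave 0.66. With both vectors 15 of 16 were positive, with a median of 0.47 (50.6% of all genes above 0), and 0 members were called by limma, where 1.26% of all genes were called. At an unadjusted p below 0.05, 4 members were higher and 2 lower, against 15% of all genes in both directions. Vldlr was at 1.27 (SE 0.35, limma adjusted p = 0.0657) and Acot1 at -2.76 (SE 0.86, limma adjusted p = 0.11). Without array 5 of the NSC double group the median for both vectors was 0.05, with 9 of 16 positive. The 3 comparisons share the controls of each cell type.

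The controls of the cell types also differed in these genes. C17.2 controls were lower than NSC controls for 18 members and higher for 1, of 33, where 25.8% of all genes were called as lower and 24.7% as higher. Cell type and slide cannot be told apart here. Fold differences come from the joint fit with slide terms for NSC, so they are not the plain differences of the means given beside them. The sterol median was -0.90 against 0.01 over all genes. Msmo1 was at 9.03 ± 0.42 (SD, n = 4) in C17.2 and 11.2 ± 0.42 (SD, n = 5) in NSC, lower by 4.19-fold (limma adjusted p = 2.23e-07). Dhcr7 was lower by 3.37-fold, Vldlr by 4.08-fold, Insig1 by 3.8-fold, Acss2 by 4.52-fold and Mvk by 3.19-fold, and Mvk was detected on 2 of 4 C17.2 controls. Idi1 was not above background on any C17.2 control and was at least 2.44-fold lower there than in NSC. Ebp, the sterol isomerase that binds emopamil, was the 1 member that was higher in C17.2, at 9.04 ± 0.29 (SD, n = 4) against 7.88 ± 0.11 (SD, n = 5), a 2.3-fold difference (limma adjusted p = 3.91e-06). For Srebf2 and Scap the fit gave 0.00209 and -0.02 in log2, and the plain differences of the means were -0.15 and 0.15.

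**Figure D4:**
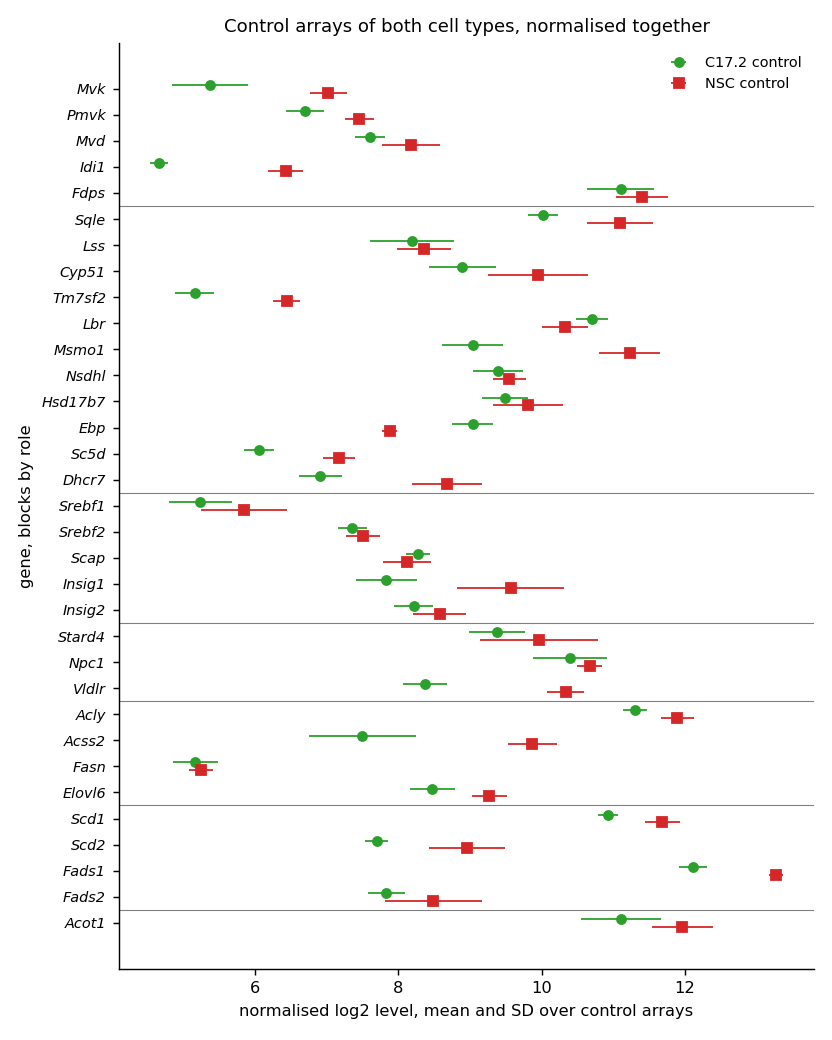
Points give the mean and bars the SD of the normalised log2 level over control arrays, 4 of C17.2 (circles) and 5 of NSC (squares), for each of the 33 genes after all arrays were normalised together. Most genes lie to the right in NSC, whereas Ebp, Lbr and Scap lie to the left, as plain means without slide terms, and levels of different genes are not comparable because each has its own probe.

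A further 36 genes of the same pathways were listed, of which 26 were tested in C17.2 and 28 in NSC. In C17.2 Acaa2, a thiolase of mitochondrial fatty acid breakdown, fell with CEBPB by 1.25 (limma adjusted p = 0.0422), 1 of 26 called, against 1.62% of all genes. In NSC 2 of 28 were called in the double group against control, where 2.84% of all genes were, Aacs, which makes acetoacetyl-CoA in the cytosol, lower by 0.58 (limma adjusted p = 0.0497), and Tmem97, a sterol-responsive membrane protein, lower by 0.77 (limma adjusted p = 0.0321). Against CEBPB alone Tmem97 fell by 0.76 and Cyb5b, a cytochrome b5 of the outer mitochondrial membrane, rose by 0.31 (limma adjusted p = 0.00571 and 0.0441), 2 of 28 where 6.47% of all genes were called. Between the cell types the CEBPB change of Aacs was higher in C17.2 by 1.42 and that of Acaa2 lower by 1.65 (limma adjusted p = 0.019 and 0.0485), and with both vectors that of Acaa2 was lower by 1.70 (limma adjusted p = 0.0128), where 0.393% and 1.26% of all genes were called with CEBPB and with both. Between the controls 6 of 29 were higher in C17.2 and 9 lower, against 24.7% and 25.8% of all genes. The median change of these genes was between -0.15 and 0.13 in the 6 comparisons with control.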

How the data were processed

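For every one of 45281 probes the deposited scanner tables hold the averaged signal of its beads, an intensity on a linear scale with 34.8% of values below 0, and a detection p-value, per the file headers. Bead numbers, also deposited, were 15 to 79 for the members' probes (median 40) and limit the precision of each value. The authors' series matrix was read as log2 values, since its scale is not given in the sources used here, and served only as an alternative. BeadStudio and lumi are named in the submitters' processing notes, without versions.

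Probes were named through the platform annotation and RefSeq, 34885 with 1 symbol, 18 with several and 10378 with none, and only the first were used. Signals were normalised by cell type by neqc (offset 16, quantiles, log2; limma 3.58.1, R 4.3.3), and by all arrays together for the comparisons between cell types. A probe was kept with a detection p below 0.05 on at least 4 arrays. Models were fitted with lmFit and eBayes over all 4 groups, two-sided, with Benjamini-Hochberg adjustment over all genes tested and calls at an adjusted p below 0.05. Slide was a fixed term in NSC and could not be fitted with the C17.2 controls. The fit was checked on data simulated with independent noise, so slide effects and deviant arrays were not covered. It recovered 65% of log2 changes of 1 in C17.2 and 63% in NSC, and 95% and 95.5% of changes of 2.

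The members and lists were chosen with earlier results of these data known. Named are members called in any comparison, the 8 with the largest change in each comparison with control and the SREBP regulators. The rule for printing windows, a match to the sterol regulatory element, found no tested member, so the printed windows were chosen after the values were seen. Alternatives were the deposited matrix, a floored signal, median centring, other detection filters, the mean over probes, array weights, other slide terms, joint normalisation, leaving out the arrays without Xist, slide 6 as 2 blocks by Xist detection (chosen after seeing the data) and leaving out each array. The value tables hold 0 pairs of identical arrays.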

Additional observations from a re-analysis of the deposited data

Results flagged for a closer look

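Of 184 sets of arrays, each 1 named gene in 1 group, 20 (10.9%) held an array far from the others. The rule was Dixon's criterion at the 95% level, and 4 of these sets were in C17.2 and 16 in NSC. For separate sets of like arrays chance would give about 1 in 20. Here the genes share their arrays and some groups span slides, so the 10.9% cannot be set against that share. Values are normalised log2 levels.

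In the C17.2 double group array 2 stood high for Pmvk, at 6.899 against 6.323 to 6.421 on the others, and for Lss, at 9.272 against 7.298 to 7.634. C17.2 control array 3 was high for Hsd17b7 (9.975 against 9.242 to 9.333), and C17.2 STAT3C array 3 for Srebf1 (5.299 against 5.029 to 5.066).

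In the NSC double group array 5 stood low for 4 genes, Sqle at 10.54 against 11.16 to 11.36, Cyp51 at 8.251 against 9.537 to 9.938, Hsd17b7 at 9.087 against 9.94 to 10.26 and Fads2 at 7.1 against 7.91 to 8.21. Array 4 of that group was high for Lss (8.788 against 7.039 to 7.531). NSC STAT3C array 4 was high for Msmo1 (11.21), Insig2 (8.869) and Scd2 (8.665) and low for Scap (8.218) and Acot1 (11.38). NSC CEBPB array 4 was high for Srebf2 (7.81) and low for Acot1 (11.6). The array 4 samples of these groups lie on slide 6 and lack detected Xist, whereas arrays 1 to 3 of STAT3C lie on slide 4 and those of CEBPB on slide 5. NSC CEBPB array 3 was low for Pmvk (6.929) and high for Scd2 (8.864). NSC control array 3 was high for Insig1 (10.6 against 9.193 to 9.327) and Fads2 (9.709 against 8.213 to 8.353).

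The CEBPB change of Dhcr7 differed between the cell types by a log2 value of 1.352 in the joint limma fit, higher in C17.2.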

How the results depend on the processing

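Of 95 named member changes, 0 of those called changed sign under any alternative; 8 lost their call with no detection filter, 2 to 4 under the other alternatives that ended any, and 0 with the stricter detection p, slide as a random block or slide 6 as 2 blocks. Counts of members called moved more. They are given without the share of all genes called in the same fits, so they cannot be set against background. In C17.2 CEBPB minus control went from 1 to 4 with median centring (3 higher, 1 lower), 0 with no detection filter, 2 with a detection p below 0.01, 12 with array weights, 0 with all arrays normalised together and 5 with slide as a random block. The C17.2 double group minus control went from 1 to 0 with the matrix, the floored signal, no filter, the mean over probes, array weights and joint normalisation, and to 3 with the random block. The C17.2 double group minus STAT3C went from 2 to 0 with no filter and with slide fixed over the transduced arrays. With array weights, C17.2 STAT3C minus control went from 0 to 5, C17.2 non-additivity from 0 to 3, NSC STAT3C minus control from 0 to 1 and NSC non-additivity from 0 to 10, the last also to 2 without the arrays lacking Xist. The NSC double group minus control went from 4 to 2 with no filter and 7 without the arrays lacking Xist. The NSC double group minus CEBPB went from 1 to 0 with median centring, the mean over probes and no slide term, to 13 with array weights and to 7 without the arrays lacking Xist. For C17.2 minus NSC, STAT3C went from 0 to 3 with median centring and 10 with array weights; CEBPB from 1 to 0 with the matrix, the floored signal, no filter and without the arrays lacking Xist, 3 with median centring, 2 with the mean over probes, 13 with array weights and 5 with no slide term; and both vectors from 0 to 2 with median centring and with array weights, and 1 with no slide term. With slide 6 fitted as 2 blocks by Xist detection, chosen after seeing the data, NSC calls went from 0 to 1 for CEBPB and from 4 to 11 for both against control, from 0 to 1 and 1 to 5 for both against STAT3C and CEBPB, and from 0 to 2 for non-additivity, and the CEBPB difference between cell types from 1 to 3. The cause of these moves was not tested. Median centring moved the median of all genes from -0.01 to 0.11 in C17.2 STAT3C minus control, and the sterol median there from 0.56 to 0.69, so relative to all genes it hardly moved; the same medians went from 0.02 to -0.12 and from -1.48 to -1.66 for C17.2 non-additivity. Leaving out each array gave, in members called, 0 to 2, 0 to 6 and 0 to 3 for C17.2 STAT3C, CEBPB and both against control, 0 to 3 and 0 for both against STAT3C and CEBPB and 0 to 3 for non-additivity; in NSC 0, 0 and 1 to 9, then 0 to 2, 0 to 4 and 0; for C17.2 minus NSC 0 to 4, 0 to 2 and 0 to 2; and 14 to 20 for the controls. No paired analysis was possible because the labels give no replicate numbers. With 4 or 5 arrays a group, a missed call does not show that a gene did not change.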
